A study of Arabidopsis thaliana with 8 samples.

Results

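The PHT1 proteins of Arabidopsis thaliana carry inorganic phosphate across the plasma membrane together with protons, and PHO1 is a phosphate exporter of another protein family. The 10 genes described here are the PHT1 genes numbered 1 to 9 and PHO1, out of 25383 loci that have a probe on the array. They were taken by locus, through the transcript accession that each probe carries. Where a locus had several probes, the one with the highest mean processed signal over the 8 arrays was used. The 10 loci had 13 probes, 1 each for 7 genes and more than 1 for 3 genes.

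Roots and flower buds of accession Col-0 were compared on 8 one-colour microarrays, 4 of each tissue. No mutation, transgene or treatment is named for either tissue, and both came from plants of 6 weeks raised in hydroponic culture and frozen in liquid nitrogen. The sources used here do not state how much phosphate the culture solution held. Each array held RNA from 1 pool of tissue of 8 to 10 plants, so the spread between arrays is that between pools and not between single plants.

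Plants take up phosphate at the root surface, pass it from cell to cell to the vascular cylinder and load it into the xylem for the shoot. PHT1 transporters in the outer root layers do most of the uptake, and PHO1 in cells around the xylem does the loading. Some PHT1 genes are known for other sites, such as pollen or leaves, where they move phosphate between tissues. When phosphate is scarce, the transcription factor PHR1 raises many of these transcripts. In a separate step that is not part of this rise, the ubiquitination proteins PHO2 and NLA lower the amount of transporter protein.

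Levels below are log2 of the processed signal over the 75th percentile of the same array, so that a level of 0 equals that percentile. Each difference is the mean log2 level of flower buds less that of roots, with the standard error of the limma fit, so a negative difference is a higher signal in roots. A gene was called when the Benjamini-Hochberg adjusted p was under 0.05 and the difference was 2-fold or more. Probes differ in how well they bind, so levels of different genes are not compared.

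The tissues carried their own marker transcripts. All 6 floral organ identity markers were called higher in flower buds, and the summed signal of these markers was 2720% to 3380% of the 75th percentile on bud arrays against 29.0% to 37.8% on root arrays. All 8 root hair markers were called higher in roots, and 7 of the 8 were not well above background on any flower bud array. Of 6 root markers 4 were called higher in roots, namely CASP1 and EXPA7, COBL9 and RHD6, which also count among the root hair markers. SCR and SHR were not called, at -0.48 and -0.43. The 75th percentile of the signal was 2560 to 3574 on root arrays and 4661 to 4803 on bud arrays. Arrays of one tissue correlated at 0.971 or more across genes, which are not independent replicates, and arrays of different tissues at 0.522 or less. All 8 arrays shared 1 slide and 1 scan date. Roots lay in the first row of the slide and buds in the second, so that slide row and tissue cannot be told apart.

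Of the 10 genes, 7 were called higher in roots and 2 higher in flower buds, and 1 was not called. Over all 22197 genes tested, 55.0% were called, 24.8% in favour of roots and 30.2% in favour of flower buds. The median difference of the 10 genes was -6.02, against 0.15 over all genes tested. The 4 root arrays and the 4 bud arrays did not overlap for any of the 10, as was the case for 79.3% of all genes tested. The root arrays were the higher ones for 8 of the 10, and for 36.4% of all genes tested. All 10 passed the filter on dim probes, which asks that 1 tissue or both be well above background on its 4 arrays. Only 5 of them cleared the background on all 8 arrays, and the other 5 passed through the tissue in which they were brighter, so these counts support nothing by themselves. In bulk tissue, fewer cells of a type and less RNA per cell cannot be told apart.

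**Figure D1:**
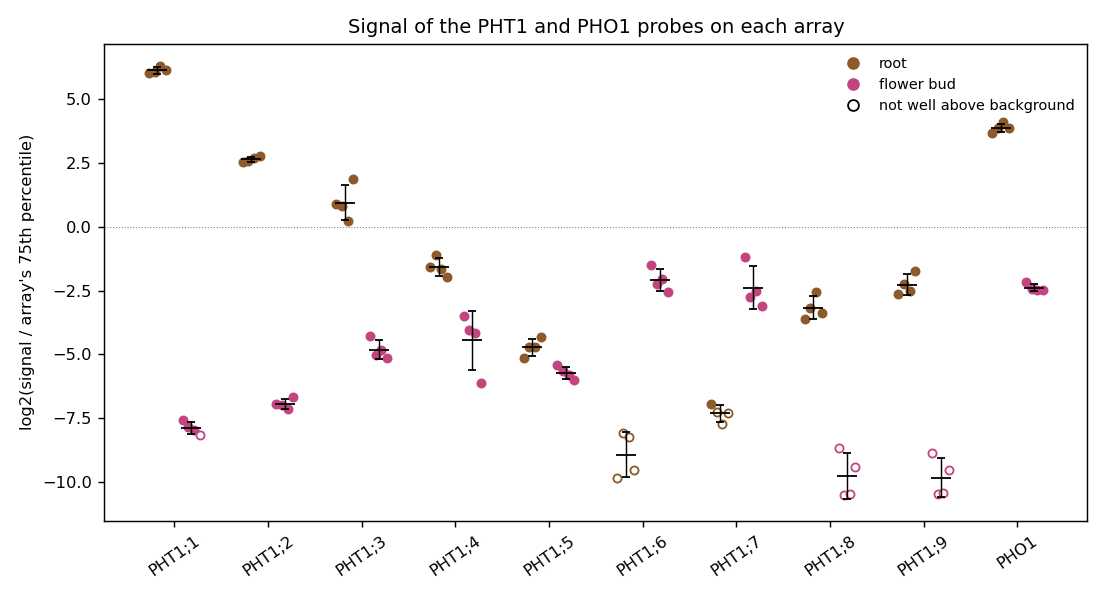
Signal of each gene's probe on each array, as log2 of the processed signal over the array's 75th percentile, with 4 root arrays and 4 flower bud arrays per gene. Bars give the mean and SD of 4 arrays, and open points were not well above background. For 8 genes the root arrays lie above the bud arrays, and for PHT1;6 and PHT1;7 they lie below.

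PHT1;1 (AT5G43350), a main uptake transporter of the root surface, had the widest gap between the tissues among the 10 genes. On root replicates 1 to 4 its level was 6.02, 6.06, 6.32 and 6.15, and on flower bud replicates 1 to 4 it was -7.57, -7.83, -7.97 and -8.15. The root arrays were close to each other and all far above the bud arrays, the fourth of which was not well above background. In processed signal this was 171200 to 286100 in roots and 17.0 to 24.9 in buds. The difference was -14.02 ± 0.14 (n = 4 arrays per tissue, limma adjusted p = 1.81e-10), and 11 of the 22197 genes tested had a larger difference towards roots. With normexp background correction, which adds an offset to every signal, it was -11.88, so the size of the fold rests on how the dim bud signal is treated. The root hair markers moved the same way, with summed signals of 946% to 1370% of the 75th percentile on root arrays and at most 31.4% on bud arrays, and their part in the result was not tested.

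PHT1;2 (AT5G43370) is a close relative of the first gene and lies near it on chromosome 5. Its levels were 2.53, 2.58, 2.69 and 2.78 in root replicates 1 to 4 and -6.96, -6.98, -7.15 and -6.68 in bud replicates 1 to 4. The pools of each tissue were again close together, and every array was well above background. The gene was higher in roots by a difference of -9.59 ± 0.12 (n = 4 per tissue, limma adjusted p = 3.18e-10), or -8.22 with normexp.

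PHT1;3 (AT5G43360), another root transporter of this cluster, was less even between pools. Its root levels were 0.91, 0.82, 0.23 and 1.86, and its bud levels -4.28, -5.04, -4.84 and -5.12. Root replicate 4 was highest and root replicate 3 lowest, a range of 1.63, whereas the roots spanned 0.30 for the first gene of the cluster and 0.26 for the second. The difference of -5.78 ± 0.34 (n = 4 per tissue, limma adjusted p = 9.10e-07) was larger than this spread.

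These 3 genes and PHT1;6 lie side by side on chromosome 5, with 0 other protein-coding genes between them in the RefSeq order. Because the members of such a cluster resemble each other in sequence, a probe for one can bind transcripts of another. How much of each signal came from a neighbour was not tested, since probe sequences were not used here. The 4 probes of the cluster did not move together. The differences were -14.02, -9.59 and -5.78 for the 3 genes described so far and 6.84 for the fourth member.

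PHT1;4 (AT2G38940), which takes up phosphate in roots beside the first gene, was also higher in roots, with bud pools that differed from each other. Its root levels were -1.58, -1.11, -1.66 and -1.97, and its bud levels -3.48, -4.03, -4.17 and -6.12. Bud replicate 4 lay 1.67 below the bud mean. The difference was -2.87 ± 0.53 (n = 4 per tissue, limma adjusted p = 0.00105). A second probe gave bud levels of -5.06, -5.57, -5.36 and -7.18, with the same pool lowest, and a difference of -2.43 ± 0.43 (limma over all probes, adjusted p = 0.000746). Leaving out 1 array at a time kept the difference of the first probe between -3.19 and -2.31.

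PHT1;8 (AT1G20860) and PHT1;9 (AT1G76430) are related to each other and are known for phosphate uptake and transfer to the shoot in roots. On its brightest probe the first had root levels of -3.59, -3.17, -2.55 and -3.37 and did not rise well above background on a bud array. On that probe it was at least 30.0-fold higher in roots, with measured means of -3.17 in roots and -9.76 in buds and a fitted difference of -6.59 ± 0.44 (n = 4 per tissue, limma adjusted p = 1.95e-06). The second had root levels of -2.64, -2.22, -2.51 and -1.71 and was likewise not well above background on any bud array. It was at least 55.9-fold higher in roots, with measured means of -2.27 and -9.83 and a fitted difference of -7.56 ± 0.39 (n = 4 per tissue, limma adjusted p = 3.71e-07). With normexp these differences were -3.30 and -4.02, smaller than the bounds, which are -4.91 and -5.80 in log2. The bounds therefore do not hold under that processing. In both cases "at least" means the root mean set against a bud mean in which each array gives its detection floor, the lowest signal called well above background there, or the probe's signal if that is higher.

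The size of the root difference of PHT1;8 depended on the probe. Its second probe was detected above background on all 8 arrays, with root levels of -4.01, -4.06, -3.95 and -4.20 and bud levels of -5.68, -5.23, -5.54 and -5.52. Roots and buds did not overlap on that probe either, but the difference was -1.44 ± 0.12 (limma over all probes, adjusted p = 5.70e-06). That is smaller than the lower bound of the brighter probe, so the 2 probes give the same direction and different sizes. Which of them follows the transcript was not tested.

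PHT1;5 (AT2G32830), known for moving phosphate between source and sink organs, had the smallest gap of the 10 genes. Its root levels were -5.15, -4.70, -4.70 and -4.32, and its bud levels -5.43, -5.66, -5.79 and -5.99. The lowest root pool and the highest bud pool were close to each other. Before scaling, the processed signals overlapped, at 98.76 to 153.9 in roots and 75.63 to 109.5 in buds. That the tissues did not overlap for this gene thus rests on the scaling. The difference of -0.997 ± 0.19 passed the limma test (n = 4 per tissue, adjusted p = 0.00133) but fell just short of the 2-fold minimum. It was called without root replicate 1, at -1.14, without flower bud replicate 1, at -1.09, and without flower bud replicate 2, at -1.02. With scaling on the reference genes its difference was -0.625, and it was not called. Between the 4 bud pools it varied less than PHT1;4 did, with a range of 0.56 against 2.64.

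PHO1 (AT3G23430), which loads phosphate into the xylem, was higher in roots and stayed measurable in buds. Its root levels were 3.68, 3.86, 4.10 and 3.89, and its bud levels -2.15, -2.42, -2.48 and -2.46. The pools of each tissue were close together, with ranges of 0.42 and 0.33. The difference was -6.26 ± 0.12 (n = 4 per tissue, limma adjusted p = 1.73e-09), and its second probe gave -6.36 ± 0.12 (limma over all probes, adjusted p = 9.24e-10). It was -6.27 with normexp. All 4 xylem markers were higher in roots too, with a median difference of -1.57 and summed signals of 1440% to 2050% of the 75th percentile in roots and 358% to 453% in buds. Their part in the result was not tested.

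**Figure D2:**
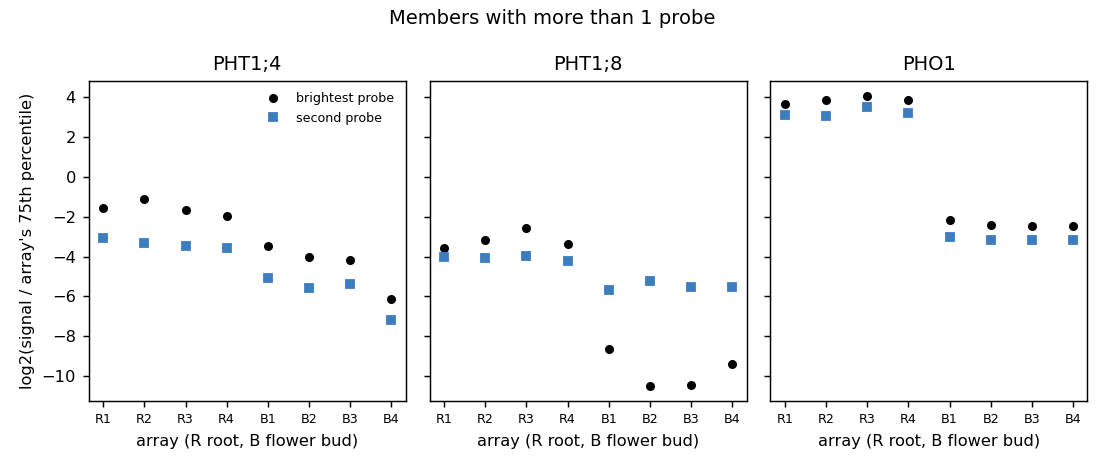
Levels of both probes of the 3 genes that had more than 1 probe, as log2 of the processed signal over the array's 75th percentile, for root replicates R1 to R4 and flower bud replicates B1 to B4. The probes of PHT1;4 and of PHO1 run in parallel, while those of PHT1;8 part in buds, where the brightest probe was not well above background.

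PHT1;6 (AT5G43340), known from anthers and pollen, was higher in flower buds. Its bud levels were -1.5, -2.24, -2.06 and -2.54, and in roots its signal was not well above background in any pool. It was at least 24.4-fold higher in buds, with means of -2.08 in buds and -8.93 in roots. The fitted difference was 6.84 ± 0.44 (n = 4 per tissue, limma adjusted p = 1.43e-06). Root replicates 2 and 3 gave -8.10 and -8.23, the same values as for MYB62 and PECP1, described below, and so not levels of this gene. The root mean, the SE and the p of the fit therefore rest on signal that was not well above background. With normexp the difference was 3.26, which is smaller than the 24.4-fold bound, 4.61 in log2.

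PHT1;7 (AT3G54700), also known from mature pollen, followed the same direction. Its bud levels were -1.18, -2.73, -2.51 and -3.08, and its root levels -6.94, -7.27, -7.74 and -7.31. Only root replicate 1 was well above background, so the fitted difference rests in part on signal that was not. That difference was 4.94 ± 0.39 (n = 4 per tissue, limma adjusted p = 5.91e-06), or 2.44 with normexp.

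Pollen markers differed between the same bud pools. Of 10 such markers 9 were tested, and 8 of the 9 were called higher in buds. In roots 8 of the 10 were not well above background in any pool. Their summed signal on bud replicates 1 to 4 was 2150%, 1410%, 926% and 596% of the 75th percentile, and on root arrays it was 118% to 181%. As deviations from the bud mean, the median over the tested markers was 0.97, 0.47, -0.30 and -1.06. Those of PHT1;6 were 0.59, -0.16, 0.03 and -0.46, and those of PHT1;7 were 1.20, -0.36, -0.14 and -0.71. The deviations of PHT1;4 were 0.97, 0.42, 0.28 and -1.67. All 3 genes were highest in bud replicate 1 and lowest in bud replicate 4, as were the pollen markers. PHT1;1, PHT1;3 and PHT1;5 had the same highest and lowest bud pools with smaller deviations, while PHT1;2 was highest in bud replicate 4. This order was not particular to pollen markers. The floral organ identity markers had it too, with medians of 0.18, 0.09, -0.09 and -0.20. Among the lists described below, so had the other phosphate transporters and the starvation effectors. The root hair markers had it as well, but 7 of these 8 were not well above background on any bud array. The medians of the root, xylem and green tissue markers, the regulators and the reference genes did not have it. With 4 pools no correlation was computed, and the part of pollen in these values was not tested.

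Root pools had their own order. Root replicate 4 was the highest pool for PHT1;3, with a deviation of 0.90, for PHT1;9, at 0.56, for PHT1;5, at 0.39, and for PHT1;2, at 0.14. The same pool was the lowest for PHT1;4, at -0.39. The summed root hair signal was 1280%, 1370%, 972% and 946% of the 75th percentile on root replicates 1 to 4. As deviations from the root mean, the median over the root hair markers was 0.22, 0.24, -0.23 and -0.13, lowest in root replicate 3, which was also the lowest pool for PHT1;3, at -0.72. The sum was lowest in root replicate 4, so the measures differ on which pool was lowest. Root replicate 3 was the highest pool for PHT1;8, at 0.62, for PHO1, at 0.21, and for PHT1;1, at 0.18. The part of root hairs in these values was not tested.

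Ratios within an array do not depend on scaling between arrays, and they showed unequal change. The log2 ratio of the PHT1;1 probe to the PHO1 probe was 2.20 to 2.34 on root arrays and -5.68 to -5.41 on bud arrays, a change of -7.76. For the PHT1;2 probe the change was -3.33. Both changes rest on dim bud signals, of 17.0 to 24.9 for PHT1;1 and 33.0 to 46.8 for PHT1;2. With normexp the differences between the tissues were -11.88 and -8.22, against -6.27 for PHO1. The sizes of both changes thus depend on how background is treated. The ratio of PHT1;3 changed by 0.48, with root arrays from -3.86 to -2.03 overlapping bud arrays from -2.66 to -2.13, and so its change could not be set apart from that of PHO1. For PHT1;4 and PHT1;5 the ratio rose in buds by 3.39 and 5.26, since these genes differed less between the tissues than PHO1 did. Such ratios compare probes and not transcript amounts.

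**Figure D3:**
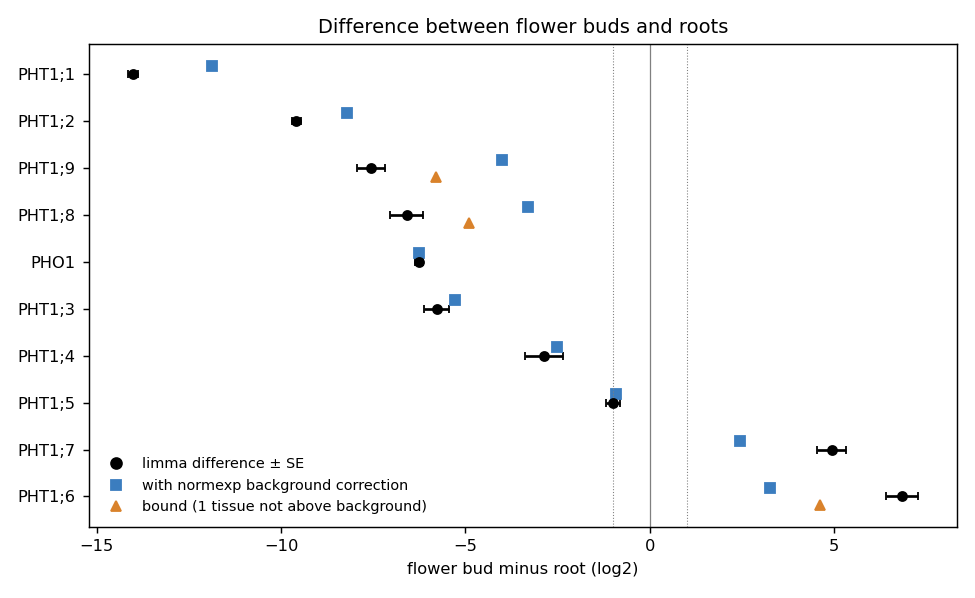
Difference between flower buds and roots for each gene (log2), with the limma estimate and its SE in black, the estimate with normexp background correction as squares and the bound, for genes not well above background in 1 tissue, as triangles. Dotted lines mark 2-fold. The estimates run from -14.02 to 6.84, and normexp moves the genes that are dim in 1 tissue furthest.

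Other phosphate transporters went in both directions. Of 22 tested, 9 were called higher in flower buds and 5 were called higher in roots, with a median difference of 0.67. Over all genes tested, 30.2% were called higher in buds and 24.8% higher in roots. The PHO1 homologues were split, with 4 of 9 higher in roots by differences of -4.17 to -1.91 and 2 higher in buds. PHO1;H2 had the largest difference towards roots, at -4.17 ± 0.13 (n = 4 per tissue, limma adjusted p = 2.40e-08). The vacuolar transporter gene PHT5;2 (AT4G22990) was higher in buds by 4.88 ± 0.13 (limma adjusted p = 1.09e-08) and the plastid transporter gene PHT2;1 (AT3G26570) by 4.43 ± 0.27 (limma adjusted p = 9.80e-07). Of the 6 PHT4 genes, whose proteins sit mostly in plastids, 3 were higher in buds by 1.28 to 4.39 and 3 were not called. Green tissue markers moved the same way, with all 4 higher in buds and summed signals of 37400% to 39700% of the 75th percentile against 77.2% to 129% in roots. Their part in the plastid transporter results was not tested.

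Of the regulators that act on the PHT1 proteins, PHO2, NLA and PHF1 were higher in roots. Of 28 regulators tested, 12 were called higher in roots and 6 were called higher in flower buds, with a median difference of -0.67. The shares over all genes tested were 24.8% and 30.2%. PHO2, a ubiquitin-conjugating enzyme that lowers PHO1 and PHT1 protein, differed by -2.69 ± 0.21 (n = 4 per tissue, limma adjusted p = 4.56e-06). NLA, a ubiquitin ligase for PHT1 proteins, differed by -4.11 ± 0.11 (limma adjusted p = 9.47e-09). PHF1, which lets PHT1 proteins leave the endoplasmic reticulum, differed by -1.72 ± 0.10 (limma adjusted p = 9.68e-07).

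The transcription factor PHR1 itself was not called, at -0.09 ± 0.09 (n = 4 per tissue, limma adjusted p = 0.372), and the sign of its difference turned when arrays were scaled on the reference genes, at 0.28. The proteins SPX1 and SPX4, which bind phosphate response factors, were not called either, at 0.67 ± 0.38 and -0.78 ± 0.11. The SPX1 value rested on root replicate 4, without which it was 1.09 and was called. With scaling on the reference genes it was called too, at 1.04. AT4, a noncoding RNA that holds back a microRNA directed at PHO2, was higher in roots by -6.96 ± 0.15 (limma adjusted p = 3.53e-09). Its relative IPS1 was well above background on 1 root array alone and was not tested.

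WRKY factors known to act on these promoters went in both directions. WRKY6, a repressor of PHO1, was higher in roots by -3.63 ± 0.25 (n = 4 per tissue, limma adjusted p = 2.14e-06). WRKY75, which promotes phosphate uptake, was higher in roots by -4.28 ± 0.66 (limma adjusted p = 0.000367), and its root levels were -2.12, -2.17, -2.11 and 0.70. Without root replicate 4 its difference was -3.58, and with normexp -3.67, and it was called in both. WRKY45, an activator of the first PHT1 gene, was higher in roots by -1.45 ± 0.51 (limma adjusted p = 0.0282), and its root levels were -1.84, -1.45, -1.67 and 0.64. Both were highest in root replicate 4. The PHT1 genes differed in that pool, and the part of these factors in the PHT1 values was not tested. PHT1;1 was highest in root replicate 3, with a deviation from the root mean of 0.18, against 0.01 in root replicate 4. PHT1;3 was highest in root replicate 4, at 0.90, as were some other PHT1 genes, while PHT1;4 was lowest in root replicate 4, at -0.39. Without that pool the difference of WRKY45 was -0.88, under 2-fold, and was not called. With scaling on the reference genes it was -1.08 and not called (limma adjusted p = 0.0803), and without flower bud replicate 3 or 4 its adjusted p in limma was 0.0614 or 0.0611. WRKY42, known to act on both gene families, was higher in flower buds by 2.18 ± 0.32 (limma adjusted p = 0.000261), with 1 root array well above background. With normexp the difference of WRKY42 was 0.24 and was not called (limma adjusted p = 0.286). The zinc finger gene ZAT6 was higher in roots by -4.52 ± 0.39 (limma adjusted p = 8.91e-06), and MYB62, a MYB factor of the phosphate response, was at least 11.7-fold higher in buds (limma adjusted p = 1.81e-05). With normexp the difference of MYB62 was 2.29, which is smaller than that bound.

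Phosphate starvation effectors, which replace phospholipids or free phosphate from organic matter, went in both directions. Of 17 tested, 7 were called higher in flower buds, 4 higher in roots and 6 were not called, with a median difference of 0.28. Among all genes tested 30.2% were called higher in buds and 24.8% higher in roots. PECP1, a phosphatase of phospholipid head groups, was at least 38.9-fold higher in buds (n = 4 per tissue, limma adjusted p = 7.65e-06), and with normexp its difference was 3.91, smaller than that bound. The ribonuclease gene RNS1 was higher in buds by 5.82, with an SE of 1.1 (limma adjusted p = 0.000991), and cleared the background on 2 of the 4 root arrays. Its root levels were -6.53, -6.85, -7.79 and -2.35, with root replicate 4 far above the others. The difference of RNS1 was 6.99 without that pool, 5.18 without root replicate 3 and 4.05 with normexp. PPCK2, a kinase of phosphoenolpyruvate carboxylase, was higher in roots by -6.12 ± 0.28 (limma adjusted p = 2.02e-07).

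**Figure D4:**
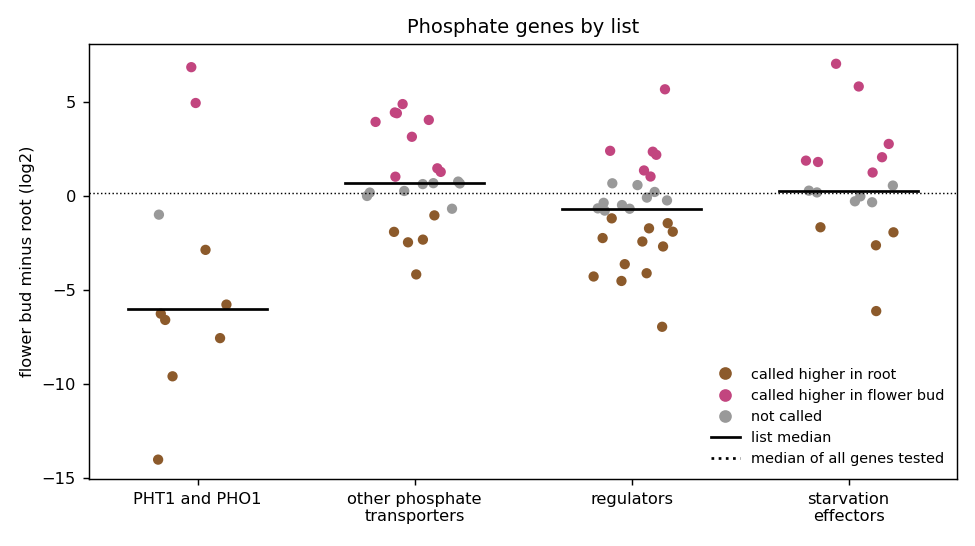
Difference between flower buds and roots (log2) for each tested gene of the PHT1 and PHO1 group and of 3 lists of other phosphate genes, with the list median as a bar and the median of all genes tested as a dotted line. The bar of the PHT1 and PHO1 group lies at -6.02, and those of the other lists lie between -0.67 and 0.67.

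For the 5 genes well above background on all 8 arrays, the genes with the most similar pattern were sought among 17895 others of that kind. Likeness was Pearson's r over the 8 arrays, which mostly reflects the gap between the tissues and is given as a description. AT4G22212 and AT2G44220 were closest to PHT1;2, each at 0.9998. AT4G17800 and B120 were closest to PHO1, at 0.9997 and 0.9995. For these genes the measure separates little, since 1443 and 1438 genes exceeded 0.99. AT1G69526 and GILP were closest to PHT1;3, at 0.9998 and 0.9985, and 420 genes exceeded 0.99 there, so they are not particular to it. MC9 and AT3G25290 were closest to PHT1;4, at 0.9972 and 0.9952, and 8 genes in all exceeded 0.99 there. APG7 and TIFY10B were closest to PHT1;5, at 0.9884 and 0.9873, with 0 genes over 0.99.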

How the data were processed

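Spot intensity from 8 scanner files was used, which per the file headers the authors made with Agilent Feature Extraction 10.10.1.1, already background-subtracted within each array. Repeated lines at the end of 6 files (408 in all, identical to their first copies) were dropped. Control spots and outlier spots (6 to 191 per array) were dropped, and saturation was found on 0 spots. Spots of one probe were averaged as log2 signal, less the array's 75th percentile over probes. The deposited log2 value table correlated at 1.000 with these values centred on each probe's median over the arrays, so its scale, centring and direction were settled from the values.

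Of 43603 probes, 34285 matched 1 locus through unversioned transcript accessions in the RefSeq table of assembly TAIR10.1, used for names and gene order alone, and 9318 matched none. Each locus took its brightest probe. The model, run in R 4.3.3 with limma 3.58.1 (lmFit, then eBayes), held tissue alone, and p-values were adjusted over all genes tested. The fit was tested on simulated data. The number of arrays limits the precision. The genes described, the lists and the rule for naming genes were chosen with earlier results of these data known. Genes named from a list are its 2 furthest called members in the direction most of its calls took, its furthest in the opposite one, and 10 regulators known to act on the members. The mean signal column that normexp was planned on was not used here, and the median signal took its place. Promoter windows and probe sequences were not analysed here. The gene PHO1;H6 had no matched probe. In the value table the root columns had medians of -0.0105, 0.0948, 0.0898 and 0.0252 in replicate order, and the bud columns -0.00796, -0.0549, -0.0407 and -0.0582.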

Additional observations from a re-analysis of the deposited data

Results flagged for a closer look

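In 154 sets of 4 arrays, 1 per tissue for each tested phosphate gene, 9 held 1 array far from the other 3, measured as its gap to the nearest array over the whole range. The limit was Dixon's critical value for 4 samples, which chance passes in about 1 in 20 sets. Of the 20 sets of the PHT1 genes and PHO1, 0 passed. The genes below that are not described above were named after their values were seen.

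Root replicate 4 was high for WRKY75, at 0.70 against -2.17 to -2.11 (a ratio of 0.977), for WRKY45, at 0.64 against -1.84 to -1.45 (0.843), for SPX1, at 0.42 against -1.40 to -1.13 (0.855), and for the acid phosphatase gene PAP17, at 1.31 against -0.36 to -0.15 (0.870). It was low for PAP12, at 1.19 against 1.39 to 1.43 (0.850). Root replicate 3 was low for PHL2, at 1.62 against 2.01 to 2.08 (0.844), and for NPC5, at -6.63 against -5.53 to -5.35 (0.859). It was high for G3PP1, at -0.07 against -0.72 to -0.65 (0.897). Flower bud replicate 2 was low for VIH1, at -2.47 against -2.27 to -2.23 (0.82903).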

How the results depend on the processing

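Over 185 values of the 10 differences under the alternatives, 179 kept their direction and their call and 0 changed direction. The others were those of PHT1;5, which was called at -1.37 with quantile normalization, at -1.15 with centring on the array median and at -0.997 with no minimum difference. Its smallest difference was -0.625, with scaling on the reference genes (limma adjusted p = 0.0134), and there it was not called. Without 1 replicate at a time the difference ranged from -1.14 to -0.866. Normexp moved the differences of 6 of the 10 genes by over 1.5-fold, and for PHT1;8 so did the mean over its probes (-4.01) and the second probe (-1.44). Counts kept within 1.5 times in 183 of 190 cases. With the filter asking for all 8 arrays, fewer genes are tested, and 8396 of 17900 were called. Only 5 of the 10 genes were tested there. Of these, 4 were called higher in roots in limma and 0 in buds, since neither gene that was higher in buds was tested. The counts higher in buds there were 3 for regulators, 4 for starvation effectors and 3973 for all genes. With normexp 3 regulators were called higher in buds, and with no minimum difference 8357 genes were called higher in roots. Of 1264 values for other phosphate genes, 22 lost a call, in 7 genes. With normexp the genes were PHT3;3 (0.91), SPX3 (0.80), WRKY42 (0.24) and VIH1 (0.82), and under other settings PHT3;3, VIH1, PHT5;1, VIH2 and WRKY45. In 18 of the 22 the limma adjusted p still passed and the difference was under 2-fold, and in 4, of WRKY42 and WRKY45, it did not pass. A call was gained in 14, of which 10 came with no minimum difference. Another 18 changed direction, in genes that were not called. With normexp these were PHT3;2 (-0.512) and PAP26 (0.139), with quantile normalization PHT3;1 (0.131) and PAP26 (0.173), and with the mean over probes PHT3;1 (0.0152). With scaling on the reference genes, which shifts every difference by 0.37, they were PHT3;1 (0.369), PHR1 (0.282), PHL2 (0.00395), ITPK1 (0.132), SQD2 (0.0343), MGD3 (0.0844) and PAP26 (0.347). Leaving out 1 replicate gave ranges of -0.0453 to 0.0776 for PHT3;1 and -0.0550 to 0.00342 for PAP26. Of all calls, 54.9% were higher in buds, 64.7% with that scaling, 50.5% with median centring, 49.4% with normexp, 49.6% without the filter on dim probes and 47.3% among genes measured on all 8 arrays. Same-numbered root and bud arrays did not deviate together (correlations of -0.267 to 0.0996). Arrays with unlike numbers reached 0.211 and -0.172. With pools of different tissues this check cannot tell whether the numbers pair the samples. With a replicate block, 12176 genes were called in place of 12215, and the call of none of the 10 genes changed (PHT1;5 at -0.997, limma adjusted p = 0.0131). The causes of these changes were not tested. Low signal limits the folds of genes that were not well above background in 1 tissue.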
